A study of Mus musculus with 2 samples.

Results

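Bone marrow cells (BMCs) that carried RNA of *Mpo* (myeloperoxidase) or *Ctsg* (cathepsin G) but little of the elastase genes *Elane* and *Prtn3* made up 110 of 9933 cells, 53 of 6271 in the WT and 57 of 3662 in the Cko. They were selected on measured counts, as cells in which *Mpo* and *Ctsg* together reached at least 0.1% of the unique molecular identifiers (UMIs, each standing for 1 captured RNA molecule), *Elane* and *Prtn3* stayed under 0.2%, the neutrophil granule genes *Camp*, *Ngp*, *Ltf*, *Lcn2*, *S100a8* and *S100a9* under 5%, and the hemoglobin genes under 1%. The study asked how loss of site-1 protease (S1P, gene *Mbtps1*) in the osterix lineage changes the BMCs, and profiled them with the 10x Genomics 3′ platform. The WT was an S1P f/f mouse, with both *Mbtps1* alleles floxed at exon 2. The Cko was an S1P f/f;Osx-Cre mouse, which carries the same floxed alleles and the Osx1-GFP::Cre transgene, so that Cre is driven by the promoter of the osteoprogenitor factor osterix. Both mice were C57BL6/J at postnatal day 21, the BMCs came from crushed and collagenase-treated fore- and hindlimbs, and red blood cells were lysed. Each genotype was 1 mouse and 1 library. Differences between the WT and the Cko therefore have no replicate check, no test was made, and every interval given is a 95% interval that covers counting error only.

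*Mpo*, *Ctsg*, *Elane* and *Prtn3* encode the enzymes of the first, or primary, granules that granulocyte and monocyte progenitors fill. Myeloperoxidase makes hypochlorous acid from hydrogen peroxide, whereas cathepsin G, neutrophil elastase and proteinase 3 are serine proteases. Basophils and mast cells fill their granules with related enzymes, such as the proteases encoded by *Mcpt8*, *Prss34* and *Cpa3*, and carry the high-affinity receptor for immunoglobulin E, of which *Ms4a2* encodes the beta chain. In GRCm38, *Mpo* lies on chromosome 11 (87793581 to 87804413, plus strand) and *Ctsg* on chromosome 14 (56099881 to 56102574, minus strand). *Mcpt8* lies on the same strand as *Ctsg*, 14607 bases away, and *Gzmb* is 156263 bases from *Ctsg*. *Elane* and *Prtn3* lie 3072 bases apart on chromosome 10.

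Because *Ctsg* and the basophil genes shared cells in these data, as described below, the 250 bases before the RefSeq start of *Ctsg* and of 3 basophil genes are shown. Capitals mark matches on either strand. The motif of GATA factors was AGATAA, which reads TTATCT on the opposite strand. The motif of ETS factors was GAGGAA, and the motif of RUNX factors was TGTGGT, which reads ACCACA on the opposite strand.
Ctsg: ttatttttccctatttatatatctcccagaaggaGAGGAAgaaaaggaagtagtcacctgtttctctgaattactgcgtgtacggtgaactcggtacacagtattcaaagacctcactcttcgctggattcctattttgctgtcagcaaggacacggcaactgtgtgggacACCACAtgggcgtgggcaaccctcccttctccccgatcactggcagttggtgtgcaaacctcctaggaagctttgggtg
Prss34: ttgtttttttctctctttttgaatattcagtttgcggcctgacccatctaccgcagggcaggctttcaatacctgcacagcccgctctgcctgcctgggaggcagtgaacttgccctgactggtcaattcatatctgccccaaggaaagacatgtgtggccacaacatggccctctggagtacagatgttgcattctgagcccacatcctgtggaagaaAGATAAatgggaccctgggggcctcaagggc
Cpa3: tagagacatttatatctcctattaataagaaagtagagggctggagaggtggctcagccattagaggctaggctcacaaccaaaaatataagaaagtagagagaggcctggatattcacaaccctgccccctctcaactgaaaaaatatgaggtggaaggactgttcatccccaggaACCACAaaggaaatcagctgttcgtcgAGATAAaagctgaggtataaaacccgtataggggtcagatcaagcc
Ms4a2: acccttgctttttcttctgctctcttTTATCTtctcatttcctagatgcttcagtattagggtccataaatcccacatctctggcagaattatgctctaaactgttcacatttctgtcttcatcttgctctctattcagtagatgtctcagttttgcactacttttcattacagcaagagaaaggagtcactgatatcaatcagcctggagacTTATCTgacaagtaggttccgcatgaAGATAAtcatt
The windows are chr14:56102575-56102824 (minus strand, *Ctsg*), chr17:25298144-25298393 (plus strand, *Prss34*), chr3:20242182-20242431 (minus strand, *Cpa3*) and chr19:11623720-11623969 (minus strand, *Ms4a2*) of GRCm38.p6, and all 4 end at the base before the annotated start. AGATAA matched once before *Prss34*, once before *Cpa3* and 3 times before *Ms4a2*, and not before *Ctsg*. GAGGAA matched once before *Ctsg*, and TGTGGT matched once each before *Ctsg* and *Cpa3*. TTGCNNAA, the CEBP motif, had no match in the 4 windows. Of 32851 mouse promoter windows of this length, 9.99% held AGATAA, 23.3% GAGGAA, 14.0% TGTGGT and 9.56% TTGCNNAA. These matches describe letters only, and no binding was measured.

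The 53 WT members were 0.845% of the kept WT cells (exact binomial interval 0.634% to 1.10%), and the 57 Cko members were 1.56% of the kept Cko cells (1.18% to 2.01%). The share was 1.84 times as high in the Cko (1.24 to 2.73). The WT library held 3145 hemoglobin-bearing cells and the Cko library 485, and this difference enters the denominator. Of the cells under the granule and hemoglobin limits, members were 2.37% (1.78% to 3.09%) of 2238 in the WT and 3.18% (2.42% to 4.10%) of 1792 in the Cko, a ratio of 1.34 with an interval of 0.908 to 1.99 that includes 1. WT members held 3238 to 14541 UMIs (median 7483) and Cko members 3350 to 24319 (median 10533), so that the Cko members were read more deeply. No member shared its barcode with a cell of the other library, although 28 barcodes occurred in both. Scrublet called 1 WT and 3 Cko members as doublets (droplets with more than 1 cell), and they were kept.

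Myeloperoxidase and cathepsin G defined the members, so their levels are a description. *Mpo* and *Ctsg* together took 0.101% to 1.67% of a WT member's UMIs (median 0.277%) and 0.104% to 1.59% of a Cko member's (median 0.244%). The nearest cells outside the limit stood at 0.0969% in the WT and 0.0970% in the Cko. In 18 WT and 25 Cko members the sum was under 0.2%, close to the limit, and it reached 1% or more in 4 and 7. *Mpo* was seen in 53 of 53 WT and 55 of 57 Cko members, and *Ctsg* in 47 and 54. *Elane* and *Prtn3* together took 0% to 0.185% in the WT (median 0.0407%) and 0% to 0.196% in the Cko (median 0.0422%), and the nearest cells above the limit stood at 0.202% and 0.210%. *Mpo* and *Ctsg* UMIs at 0.1% or more were also found in 34 of 3145 WT hemoglobin-bearing cells (1.08%) and 9 of 485 in the Cko (1.86%). These shares give a background of the limit outside the class. Under the granule and hemoglobin limits, 9 of 817 WT cells (1.10%) and 6 of 602 Cko cells (0.997%) at a limit on B cell genes reached 0.1%. By the limits, each of these was a member or had *Elane* and *Prtn3* at 0.2% or more. They therefore give no background from cells of other kinds.

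*Ly6c2*, a surface antigen of monocytes and of their progenitors that was given as a marker of these cells, was absent from most of them. WT members took 0% to 2.01% of their UMIs from *Ly6c2* and Cko members 0% to 0.677%, and the median was 0 in both. No *Ly6c2* UMI was counted in 37 of 53 WT members (69.8%) and 30 of 57 Cko members (52.6%). After each cell was thinned to 3000 UMIs, a *Ly6c2* UMI remained in 15.1% of WT and 29.8% of Cko members, against 92.3% and 94.4% of elastase-high cells and 97.6% and 96.6% of monocyte-marker cells. B-marker cells, which should lack the gene, held it in 5.28% and 6.66% after the same thinning (medians of 5447 and 6678 UMIs before it), and without thinning the shares were 30.2% and 47.4% of members against 10.2% and 15.7% of B-marker cells. Elastase-high cells are those with *Elane* and *Prtn3* at 0.2% or more under the same granule and hemoglobin limits (440 WT cells with a median of 12518.5 UMIs and 395 Cko cells with 15645). Monocyte-marker cells pass neither the *Mpo* and *Ctsg* limit nor the *Elane* and *Prtn3* limit and hold *Csf1r*, *Ccr2*, *F13a1*, *Ms4a6c* and *Fn1* at 0.2% or more (207 WT cells with a median of 4926 UMIs and 406 Cko cells with 5064.5). Because *Ly6c2* was missing from most members, the class is described by its rule and its leading genes.

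The members fell into ranges that did not share their leading genes, and the limits of these ranges were set after the values had been seen. The 7 basophil genes *Prss34*, *Mcpt8*, *Cpa3*, *Ms4a2*, *Fcer1a*, *Gzmb* and *Cd200r3* took 0% to 15.7% of the UMIs of a WT member (median 0.0111%) and 0% to 20.3% of a Cko member's (median 0.0304%). They reached 1% or more in 12 WT and 17 Cko members and stayed under 0.1% in 36 and 36, with 1 and 1 near the limit, from 0.1% to under 0.4%. A limit of 0.2% put 16 WT members (30.2%, 18.3% to 44.3%) and 20 Cko members (35.1%, 22.9% to 48.9%) in a basophil-gene range. A limit of 1% on the eosinophil granule genes *Prg2*, *Prg3*, *Epx*, *Ear1* and *Ear2* put 3 WT and 3 Cko members in an eosinophil-gene range, which took 1 WT cell that also passed the basophil limit. *Ly6c2* at 0.2% or more marked 3 WT and 4 Cko members. The remaining range held 31 WT members (58.5%, 44.1% to 71.9%) and 30 Cko members (52.6%, 39.0% to 66.0%). Of all cells under the granule and hemoglobin limits that passed the basophil limit, 17 of 22 in the WT and 20 of 25 in the Cko were members.

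**Figure D1:**
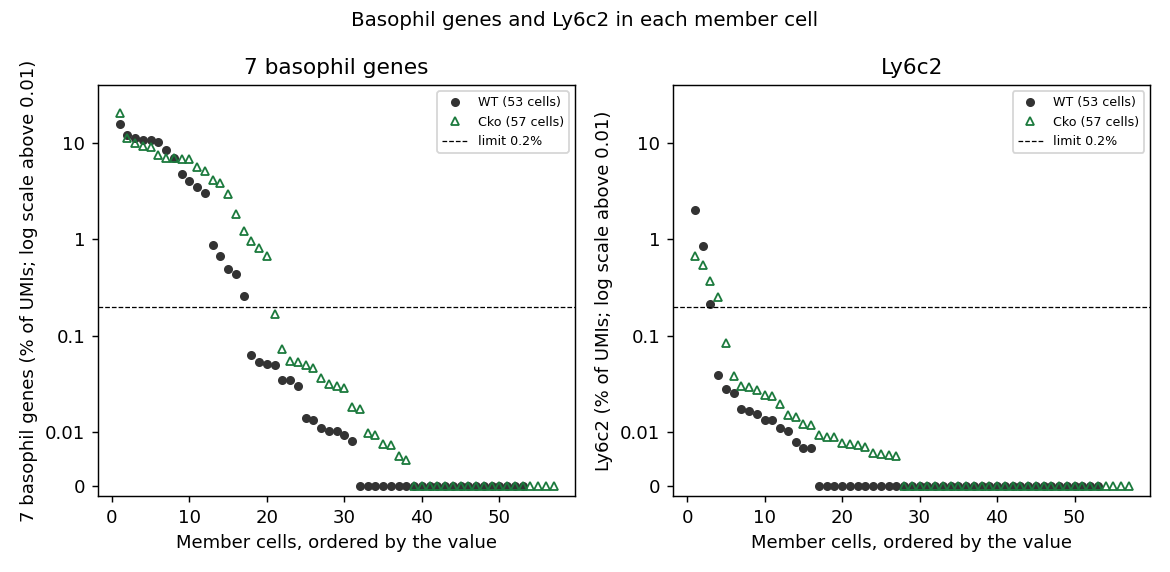
Each point is 1 member cell, ordered along the horizontal axis by its value. The vertical axes give the share of the cell's UMIs in percent for the 7 basophil genes (left) and for *Ly6c2* (right), on a log scale above 0.01. The dashed line is the 0.2% limit. For the basophil genes, 36 members of each library lie under 0.1%, whereas 12 WT and 17 Cko members lie at 1% or more, while 50 WT and 53 Cko members lie under 0.1% for *Ly6c2*.

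The balance of *Mpo* and *Ctsg* differed between the ranges. Counted as 3′ tags, *Ctsg* had more UMIs than *Mpo* in 12 of 16 WT and 13 of 20 Cko basophil-gene members, whereas *Mpo* had more than *Ctsg* in 29 of 31 WT and 26 of 30 Cko remaining members. Of all *Ctsg* UMIs in members, 59.1% in the WT and 55.1% in the Cko were found in basophil-gene cells, but of all *Mpo* UMIs only 35.1% and 35.9%. The proteinase 3 gene *Prtn3* went with the other side, since the remaining members held 85.4% of its WT UMIs and 77.6% of its Cko UMIs. No UMI of *Elane* or *Prtn3* was counted in 9 of 16 WT and 7 of 20 Cko basophil-gene members, against 3 of 31 and 2 of 30 remaining members. The members with the most *Mpo* and *Ctsg* were those with basophil genes. From 18 WT members with the sum at 0.1% to 0.2%, through 22 at 0.2% to 0.5%, to 13 at 0.5% or more, the basophil, mast cell and eosinophil list had summed levels of 2672, 14420 and 44505 CPM (counts scaled to a total of 1000000 UMIs over the cells of a class). In the 25, 13 and 19 Cko members of the same bins the levels were 6140, 17759 and 27591 CPM. Because these bins share the rule's own genes, the order is a description.

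**Figure D2:**
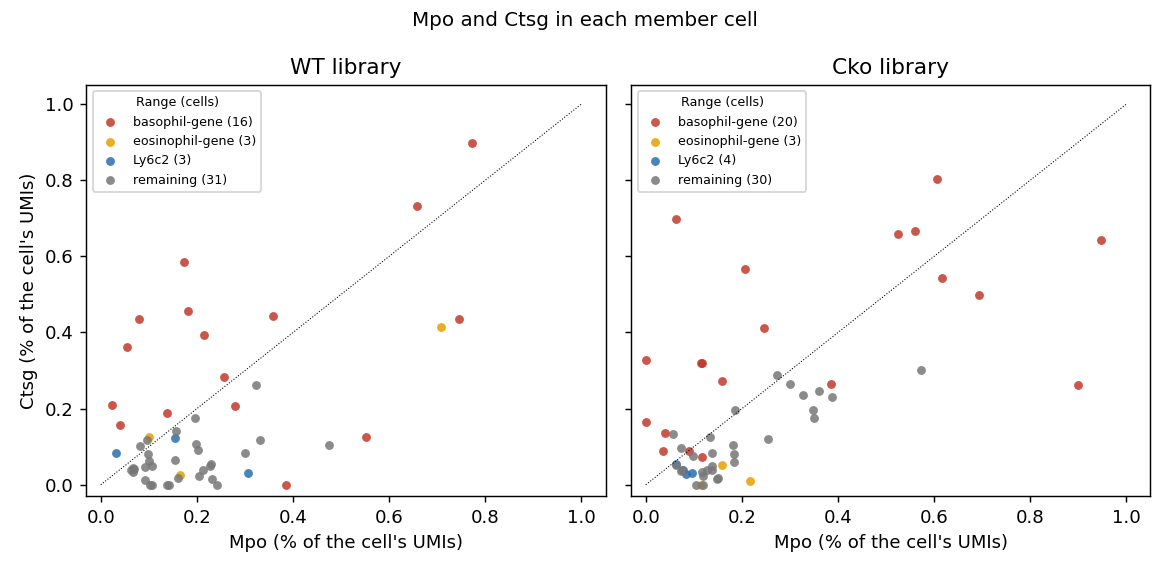
Each point is 1 member cell of the WT (left) or the Cko (right), with *Mpo* on the horizontal and *Ctsg* on the vertical axis, both as a percent of the cell's UMIs. Colours give the range and the dotted line marks equal shares. Most basophil-gene cells (12 of 16 and 13 of 20) lie above the line, and most remaining cells (29 of 31 and 26 of 30) lie below it.

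The 7 genes of the limit defined the basophil-gene members, so their levels there are a description. *Mcpt8* took up to 6.18% of a WT cell's UMIs (median 2.58%) and up to 7.42% of a Cko cell's (median 2.62%). *Prss34*, which encodes a protease of basophils and mucosal mast cells, took up to 9.09% in the WT (median 2.45%) and up to 12.2% in the Cko (median 2.52%), and was present in 14 of 16 and 18 of 20 of these cells. Levels of both genes overlapped widely between the libraries. *Cpa3*, the mast cell carboxypeptidase, had medians of 0.270% and 0.331%, and *Ms4a2* of 0.0951% and 0.0659%. The GATA factor gene *Gata2* was present in 14 of 16 and 18 of 20 cells. *Gata2* was not used for the limit, and 97.1% of its WT and 80.3% of its Cko UMIs in members lay in this range.

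Genes that the limits had not used differed between the basophil-gene and the remaining members. Of 478 genes with at least 100 UMIs in each library, 26 (5.44%) were at least 2-fold higher and 15 (3.14%) at least 2-fold lower in the basophil-gene members in both libraries. *Cd63*, a tetraspanin of granule membranes, stood at 2559 CPM in WT and 3128 CPM in Cko basophil-gene members and at 39.2 and 38.6 CPM in remaining members, 65.3-fold (interval 35.9 to 132) and 81.0-fold (49.3 to 143) higher. *Fcer1g*, which encodes the gamma chain of the immunoglobulin E receptor, was 6.62-fold and 7.10-fold higher, *Alox5ap*, needed for leukotriene synthesis, 5.30-fold and 4.06-fold, and *Srgn*, the proteoglycan of granules, 4.14-fold and 4.25-fold. *Anxa1* was 23.5-fold and 18.05-fold higher and *Ifitm1* 12.9-fold and 9.40-fold. The growth-associated genes *Npm1* (0.38 and 0.38 times the level in remaining members), *Mif* (0.23 and 0.41) and *Hspe1* (0.35 and 0.31) were among the lowest, as was *Lmo2*, a partner of GATA factors in early progenitors (0.28 and 0.23). Because the ranges were chosen in these same cells, these folds describe them and test nothing.

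The eosinophil-gene and *Ly6c2* members were few. *Prg2*, the major basic protein of eosinophil granules, took 2.23%, 2.43% and 7.66% of the UMIs of the 3 WT eosinophil-gene cells and 3.48%, 5.02% and 6.29% of those of the 3 Cko cells. The 3 Cko eosinophil-gene cells were the 3 Cko members that Scrublet called as doublets, while the WT doublet lay in the remaining range. No *Prg2* UMI was counted in any other member. The 3 WT and 4 Cko *Ly6c2* cells held 90.6% and 80.8% of the members' *Ly6c2* UMIs, which follows from the limit. They also carried *Lyz2* (lysozyme) at 13603 CPM in the WT and 12461 CPM in the Cko, and *Klf4*, a transcription factor of monocytes, at 433 and 362 CPM, against 0 and 7.25 CPM in the remaining members. *Irf8* was present in 3 of 3 and 3 of 4 of them.

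Among the members, *Cd34* and *Irf8* were found mostly in the remaining range. *Cd34*, a surface marker of hematopoietic progenitors, was present in 25 of 31 WT and 28 of 30 Cko cells of this range, and *Irf8*, which directs progenitors to monocytes and dendritic cells, in 18 and 20. Both genes were seen together in 15 WT and 19 Cko cells, *Cd34* alone in 10 and 9, *Irf8* alone in 3 and 1, and neither in 3 and 1. In the basophil-gene range the most frequent state was neither gene, in 11 of 16 and 15 of 20 cells. The stem cell factor receptor gene *Kit* was seen in 9 of 31 (29.0%) and 10 of 30 (33.3%) remaining cells. Of all *Cd34* UMIs in members, 89.0% in the WT and 94.1% in the Cko were found in the remaining range, as were 91.0% and 87.2% of those of *Irf8*. *Csf1r*, the receptor of mature monocytes and macrophages, stood at 21.4 and 24.2 CPM in them. The summed stem and early progenitor list was not highest in this range. It stood at 2233 CPM in WT and 1896 CPM in Cko remaining members, at 5883 and 4456 CPM in basophil-gene members, of which *Ifitm1* gave 4497 and 3654 CPM, and at 4544 and 3409 CPM in monocyte-marker cells.

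**Figure D3:**
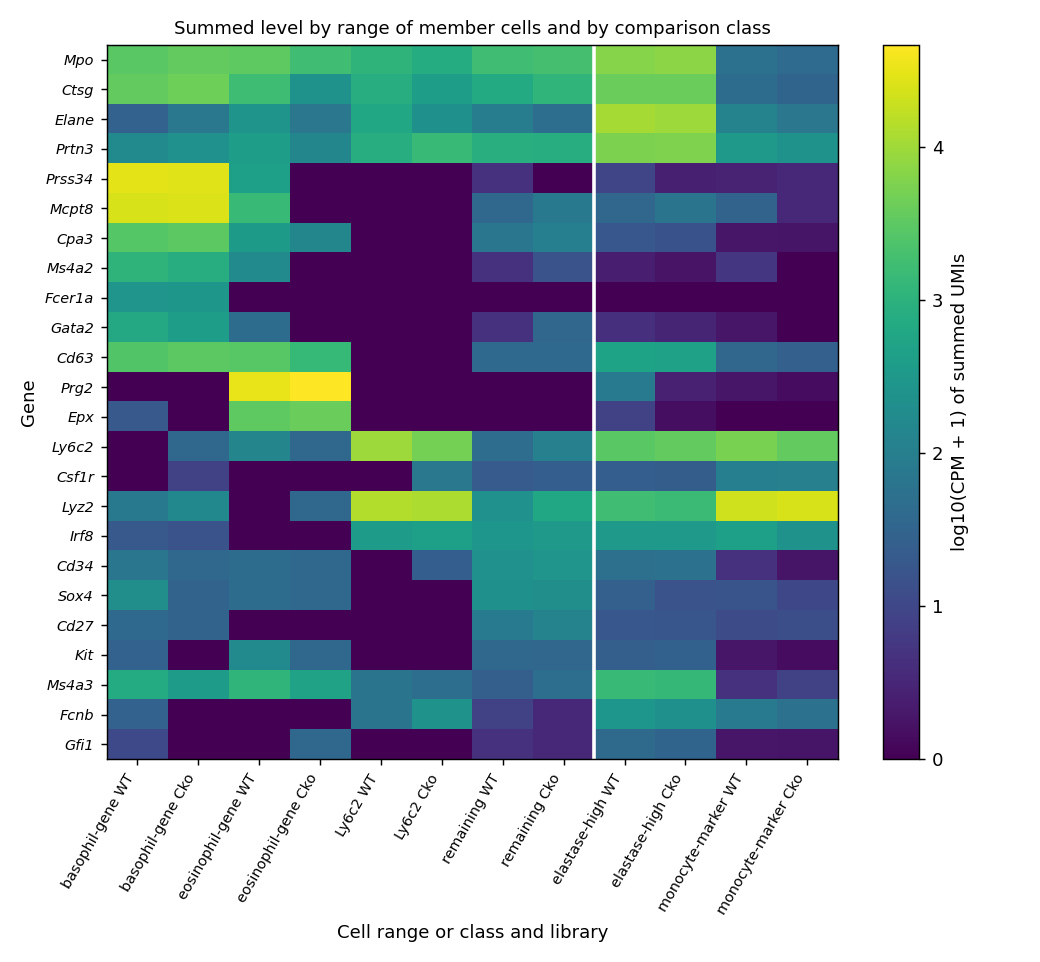
Colours give the level of each gene (rows) as log10 of CPM plus 1, from UMIs summed over the cells of each range of members and, right of the white line, of the elastase-high and monocyte-marker cells in the WT and the Cko. Read along a row, *Prss34* and *Mcpt8* are highest in the basophil-gene members, *Cd34* and *Cd27* are higher in the remaining members than in either comparison class, and *Fcnb* and *Gfi1* are near 0 in the remaining members. The eosinophil-gene and *Ly6c2* columns rest on 3 or 4 cells each.

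Against the elastase-high cells, the members were higher for basophil, eosinophil and early progenitor genes and lower for neutrophil genes. Of 4411 genes with at least 100 UMIs in each library, 73 (1.65%) were at least 2-fold higher in the members in both libraries and 126 (2.86%) at least 2-fold lower. Ordered by the smaller fold of the 2 libraries, the first were *Prss34* (7368 CPM in WT and 6075 in Cko members, 870-fold and 3896-fold), *Ms4a2* (279 and 192 CPM, 193-fold and 246-fold), *Mcpt8* (6002 and 5997 CPM, 177-fold and 95.2-fold) and *Cpa3* (742 and 752 CPM, 41.6-fold and 52.4-fold). *Ifitm1* (26.7-fold and 28.2-fold), *Apoe*, which encodes a lipid carrier (13.1-fold and 10.7-fold), and *Sox4*, a transcription factor of early progenitors (7.56-fold and 9.78-fold), were also among the 10 highest, with the granule genes *Epx* (25.2-fold and 389-fold), *Prg2* (20.5-fold and 1261-fold) and *Prg3* (8.80-fold and 10.98-fold). Few members held these granule genes, 3 WT and 3 Cko members each for *Prg2* and *Prg3*, and 5 and 3 for *Epx*. Basophil-gene cells gave 464 of 581 WT and 501 of 669 Cko UMIs of *Ifitm1*. They gave 79 of 109 and 111 of 156 of *Apoe*, but only 21 of 83 and 4 of 90 of *Sox4*. All 7 compared genes of the basophil, mast cell and eosinophil list were higher. At the other end stood *Trem3* (0.03 and 0.03 times the elastase-high level), *Fcnb*, which encodes ficolin B (0.05 and 0.08), *Gfi1*, a repressor that neutrophil progenitors need (0.11 and 0.10), *Gstm1* (0.12 and 0.07) and *Ly6c2* (0.14 and 0.12). Of the neutrophil lineage list 8 of 11 compared genes were lower and none higher. Of the primary granule list 9 of 14 compared genes were lower, and the rule's own 4 genes were not among those compared.

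The remaining members alone were also compared with the elastase-high cells. Of 4342 genes compared between remaining members and elastase-high cells, 64 (1.47%) were at least 2-fold higher and 224 (5.16%) at least 2-fold lower in both libraries. *Sox4* stood at 217 CPM in WT and 205 CPM in Cko remaining members, 8.37-fold (interval 6.10 to 11.4) and 13.9-fold (10.2 to 18.8) above the elastase-high cells. *Cd34* stood at 231 and 268 CPM against 52.1 and 56.3 CPM, 4.44-fold (3.34 to 5.83) and 4.76-fold (3.81 to 5.91) higher. *Egfl7* was 7.14-fold and 9.15-fold, *Cd27* 4.39-fold and 7.38-fold, and *Bcl2*, which protects cells from apoptosis, 4.18-fold and 5.55-fold higher. Of the stem and early progenitor list 5 of 8 compared genes were higher and 0 lower, and the summed list stood at 2233 CPM in WT and 1896 CPM in Cko remaining members against 936 and 626 CPM in elastase-high cells. Cebpe, a factor of granulocyte maturation (0.03 and 0.03), *Ms4a3* (0.02 and 0.04), *Fcnb* (0.03 and 0.01) and *Cd63* (0.08 and 0.08) were among the lowest. No gene of the S phase list differed by 2-fold among 27 compared, and 1 of 30 of the G2 phase and mitosis list was lower.

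Against the monocyte-marker cells, the members had lower levels of most compared genes of the monocyte lineage list. Of 1957 genes compared, 82 (4.19%) were at least 2-fold higher in both libraries and 313 (16%) at least 2-fold lower. Of the monocyte lineage list 13 of 16 compared genes were lower and 0 higher. The genes used to select the monocyte-marker cells were not among those compared. The summed list stood at 2058 CPM in WT and 2706 CPM in Cko members against 19607 and 20037 CPM in monocyte-marker cells, and the 3 WT and 4 Cko *Ly6c2* members were near the latter at 18240 and 15016 CPM. This sum holds *Ly6c2* and genes that select the monocyte-marker cells, so it is a description. *Chil3*, a chitinase-like protein (0.04 and 0.04 times the monocyte-marker level), *Ifi27l2a*, an interferon-induced gene (0.03 and 0.03), *Cybb*, a subunit of the phagocyte oxidase (0.02 and 0.04), *Mpeg1*, which encodes a pore-forming protein (0.05 and 0.04), and *H2-Aa*, an MHC class II chain (0.05 and 0.04), were among the lowest. Besides basophil and eosinophil genes, the 10 highest by the smaller fold held *Ifitm1* (43.1-fold and 52.5-fold), *Nkg7*, a granule membrane protein (27.7-fold and 166-fold), *Cd63* (23.95-fold and 29.3-fold), *Ms4a3* (73.4-fold and 19.6-fold) and *Phgdh*, the first enzyme of serine synthesis (15.3-fold and 29.1-fold). Basophil-gene cells gave 77.4% of the WT members' *Cd63* UMIs and 88.6% in the Cko. They also gave most UMIs of *Ifitm1* (464 of 581 and 501 of 669) and *Ms4a3* (76 of 110 and 52 of 88). For *Nkg7* the counts were 97 of 166 and 101 of 166. In remaining members *Cd63* stood at 39.2 and 38.6 CPM, near the 33.7 and 26.6 CPM of monocyte-marker cells. *Ifitm1* (349 and 389 against 31.9 and 20.5 CPM) and *Nkg7* (164 and 116 against 14.2 and 1.61 CPM) stayed higher there. Of the S phase list 4 of 17 compared genes were higher.

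Most genes of the members differed little between the WT and the Cko. Of 1251 genes listed in both libraries with at least 100 UMIs over the members, 28 (2.24%) were at least 2-fold higher and 7 (0.56%) at least 2-fold lower in the Cko, and the median log2 Cko/WT was -0.10. Of the 28, 9 were ribosomal protein pseudogenes and 7 were gene models without a name, and their counts are uncertain because such copies share reads with near-identical genes. *Rps10-ps1* was 4.31-fold higher in the members, and 2.49-fold in elastase-high, 3.07-fold in monocyte-marker and 3.12-fold in B-marker cells. The rule's own genes were kept in this comparison. They include *S100a9* and *Ngp* among the higher genes and the hemoglobin genes among the lower. The 4 hemoglobin genes made up most of the 7 lower ones, and they were lower in other classes too. *Hbb-bs* had 0.25 times the WT level in the members, 0.264 in elastase-high, 0.332 in monocyte-marker and 0.293 in B-marker cells. Hemoglobin took 0.163% to 0.759% of a WT member's UMIs and 0.0278% to 0.178% of a Cko member's.

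**Figure D4:**
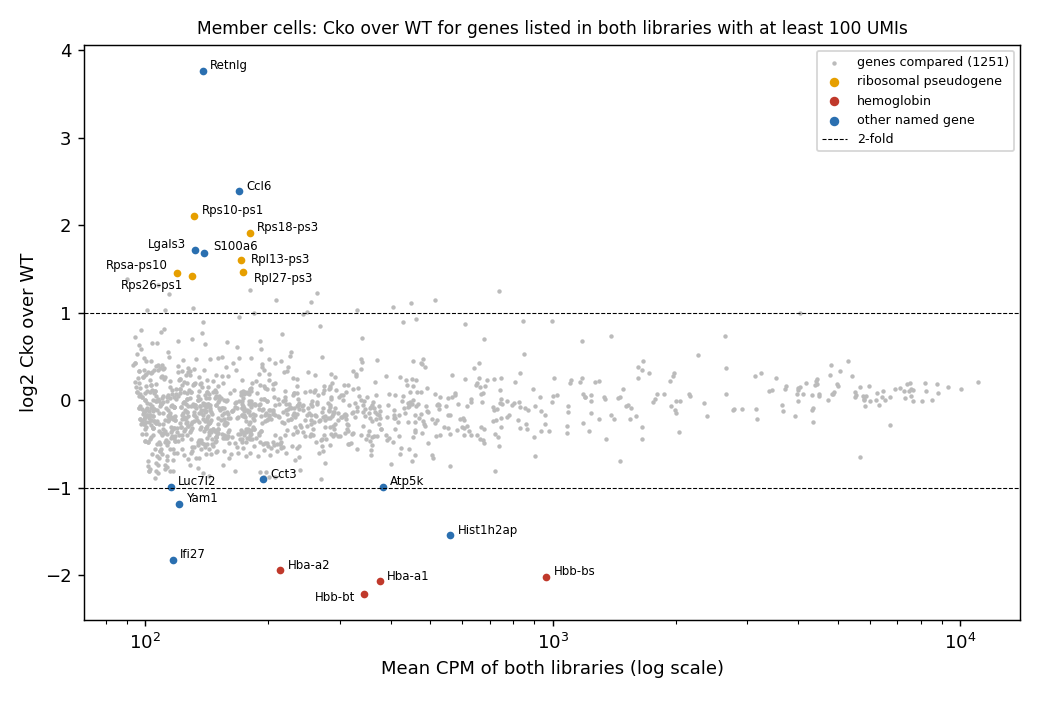
Each point is 1 of 1251 genes, with the mean CPM of both libraries on a log horizontal axis and the log2 Cko/WT of the members on the vertical axis. Dashed lines mark 2-fold. The 10 highest and 10 lowest genes are named, of which 6 are ribosomal pseudogenes at the top and 4 are hemoglobin genes at the bottom, and most other genes lie between the lines.

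Several other genes were higher in the Cko, with a large part of their UMIs in single cells. *Ccl6*, a chemokine gene of myeloid cells, stood at 54.3 CPM in WT and 285 CPM in Cko members (5.24-fold, 3.38 to 8.48), but 1 cell held 53.1% of the Cko UMIs. Without that cell *Ccl6* was 2.49-fold higher (1.55 to 4.13). The cell was a basophil-gene member, and in this range *Ccl6* was seen in 5 of 16 WT and 6 of 20 Cko cells, at 174 and 1079 CPM (6.19-fold, 3.78 to 10.7) with it and 2.38-fold higher (1.37 to 4.30) without it. *Ccl6* differed 1.44-fold in elastase-high and 1.55-fold in monocyte-marker cells. *Ccl9*, the neighbouring family member, was 3.57-fold higher in the Cko basophil-gene members (223 and 795 CPM, 2.26 to 5.86), in 7 of 16 WT and 14 of 20 Cko cells. Without the Cko cell that held 26.6% of its Cko UMIs in this range, *Ccl9* was 2.76-fold higher there (1.72 to 4.61). It was 1.10-fold in the remaining and 1.80-fold in all members, under the limit of 2-fold, and 2.13-fold in monocyte-marker cells. *Lgals3* (galectin-3) was 3.30-fold (2.15 to 5.25) and *S100a6*, a calcium-binding protein, 3.21-fold (2.12 to 5.02) higher in the Cko members, against 1.09-fold and 1.12-fold in elastase-high cells. One WT cell held 61.5% of the WT *Lgals3* UMIs, and without it *Lgals3* was 8.39-fold higher in the Cko (4.41 to 17.9). *S100a6* was 2.45-fold higher (1.60 to 3.87) without the Cko cell that held 25% of its UMIs there. *Retnlg*, a gene of mature neutrophils, was 13.6-fold higher (18.9 and 258 CPM, 6.75 to 32.1). One Cko member, in which the 6 granule genes took 4.25% of the UMIs, held 75.6% of the Cko *Retnlg* UMIs, and without that cell *Retnlg* was 3.38-fold higher (1.56 to 8.36).

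Besides hemoglobin, 3 genes were at least 2-fold lower in the Cko members. *Ifi27*, an interferon-induced gene, stood at 182 and 51.5 CPM (0.28-fold, 0.18 to 0.43), and the same ratio was 0.609 in elastase-high and 1.02 in monocyte-marker cells. *Hist1h2ap*, a replication-dependent histone gene, stood at 834 and 287 CPM (0.34-fold, 0.29 to 0.41) and was also lower in elastase-high (0.452), monocyte-marker (0.244) and B-marker cells (0.507). *Yam1* was at 0.44-fold. Among the genes under the limit of 2-fold, *Lmo2* (350 and 188 CPM, 0.54-fold, 0.42 to 0.69), *Ifitm3* (510 and 335 CPM, 0.66-fold) and *Dut*, which keeps uracil out of DNA (555 and 344 CPM, 0.62-fold), were lower in the Cko, and *H2-D1*, an MHC class I chain, was higher (430 and 787 CPM, 1.83-fold, 1.54 to 2.18). The first 3 were also lower in elastase-high, monocyte-marker and B-marker cells. In that order the ratios were 0.569, 0.611 and 0.540 for *Lmo2*, 0.572, 0.757 and 0.617 for *Ifitm3*, and 0.818, 0.707 and 0.782 for *Dut*. *H2-D1* was also 2.16-fold higher in elastase-high and 1.68-fold in monocyte-marker cells.

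Within the ranges, 6 of 324 genes compared in the basophil-gene members (1.85%) were at least 2-fold higher and 4 (1.23%) at least 2-fold lower in the Cko. Besides *Ccl6* and *Ccl9*, the higher ones were *Rsrp1*, *Rpl23a-ps3*, *Napsa* and *Rps3a1*, and the lower ones were *Hba-a1*, *Hbb-bs*, *Tubb5* (0.49-fold) and *Lmo4*, a LIM-domain cofactor (1367 and 671 CPM, 0.49-fold, 0.37 to 0.64). The GATA factor gene *Gata2* stood at 659 and 416 CPM (0.63-fold, 0.436 to 0.910). In the remaining members, 19 of 828 genes (2.29%) were at least 2-fold higher and 7 (0.845%) at least 2-fold lower in the Cko. *Lyz2* (231 and 645 CPM, 2.79-fold, 2.12 to 3.71), *S100a9* (2.62-fold) and *S100a8* (2.21-fold), which encode abundant products of neutrophils and monocytes, were higher. Without the Cko cell of 4.25% granule RNA these 3 ratios were 2.75, 1.57 and 1.12. At the other end, *Slbp*, which binds histone RNA, was lower (292 and 135 CPM, 0.46-fold, 0.32 to 0.66) with *Hist1h2ap* (0.32-fold) and *Hnrnpc* (0.49-fold). *Lyz2* was 0.875-fold in elastase-high and 1.13-fold in monocyte-marker cells.

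The primary granule list, which holds the rule's own *Mpo*, *Ctsg*, *Elane* and *Prtn3*, stood at 12578 CPM in WT and 12634 CPM in Cko members (log2 0.01, -0.04 to 0.06), and 0 of its 12 compared genes differed by 2-fold. Within the ranges it was higher in the Cko, by log2 0.15 (0.07 to 0.23) in the basophil-gene and 0.09 (0.02 to 0.16) in the remaining members. Within it, *Mpo* stood at 2108 and 2215 CPM and *Ctsg* at 1475 and 1767 CPM (1.20-fold, 1.09 to 1.32), while *Ms4a3* was lower at 260 and 142 CPM (0.54-fold, 0.41 to 0.73). *Ms4a3* was 0.51-fold (0.35 to 0.74) in the basophil-gene members and 1.94-fold (0.79 to 5.42) in the remaining members. In elastase-high cells it was 0.93-fold. The basophil, mast cell and eosinophil list differed by log2 -0.09 (16792 and 15726 CPM), *Prss34* by 0.82-fold (0.79 to 0.86), *Mcpt8* by 0.999-fold and *Cpa3* by 1.01-fold.

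The lists of early progenitor and monocyte genes differed in opposite directions. The stem and early progenitor list was lower in the Cko (3117 and 2382 CPM, log2 -0.39, -0.50 to -0.28), with 0 of 7 compared genes past 2-fold. Without members holding markers of other lineages the difference was -0.086, with an interval of -0.26 to 0.09 that includes 0. The list was also lower in the Cko in elastase-high (936 and 626 CPM) and monocyte-marker cells (4544 and 3409 CPM). In B-marker cells it stood at 505 and 461 CPM. *Cd34* itself was at 172.5 and 190 CPM (1.10-fold). The monocyte lineage list was higher (2058 and 2706 CPM, log2 0.39, 0.28 to 0.51), with 1 of 8 past 2-fold, *Lgals3*. This difference was log2 0.93 (0.58 to 1.29) in the basophil-gene members and 0.24 (0.07 to 0.41) in the remaining members. In the basophil-gene members *Ccl9* gave 23 of the list's 95 WT UMIs and 109 of its 240 Cko UMIs, and *Lgals3* gave 4 and 41. The difference in these members therefore rests largely on those genes. Over all members the difference fell to -0.59 when the *Mpo* and *Ctsg* limit was set at 0.2%. The 3 WT and 4 Cko *Ly6c2* members gave 295 of the list's 871 WT UMIs and 623 of its 1681 Cko UMIs. The sum of *Mpo* and *Ctsg* was 0.111% to 0.127% in the Cko *Ly6c2* members, all under that limit. It was 0.114%, 0.278% and 0.336% in the WT ones. The part of these cells in the change of direction was not tested. *Irf8* stood at 210 and 251 CPM (1.19-fold). The neutrophil lineage list was higher in the Cko as well (2585 and 4787 CPM, log2 0.89, 0.79 to 0.99), with *Retnlg*, *S100a9* and *Ngp* past 2-fold among 7 compared genes. This list holds the 6 granule genes that the rule limits, *S100a9* and *Ngp* among them, so its level is a description. Without the Cko cell of 4.25% granule RNA the difference was log2 0.60 (0.49 to 0.70) and *S100a9* was 1.55-fold higher, no longer past 2-fold. *Ngp*, at 2.004-fold, was 1.84-fold higher without the Cko cell that held the most of its UMIs. The part of RNA from mature neutrophils in these differences was not tested. The 6 granule genes took 0.0397% to 0.442% of the UMIs of WT members and 0.0819% to 4.25% of Cko members.

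The cell cycle lists, summed, were lower in the Cko basophil-gene members and near equal in the remaining members. The S phase and G2 lists together stood at 10695 and 9345 CPM in all members (log2 -0.19, -0.25 to -0.14), 14605 and 9553 CPM in the basophil-gene members (log2 -0.61, -0.72 to -0.50) and 9308 and 8926 CPM in the remaining members (log2 -0.06, -0.13 to 0.01). The separate lists gave different orders of the ranges. The G2 phase and mitosis list differed by log2 -0.79 in the basophil-gene and 0.18 in the remaining members, the S phase list by -0.06 and -0.45, and *Top2a* stood at 456 and 197 CPM in the basophil-gene members. These values rest on 16 and 20 basophil-gene cells. The endoplasmic reticulum chaperone list, which includes targets of the S1P substrate ATF6, differed by log2 -0.18 (-0.28 to -0.08), with *Hspa5* at 239 and 225 CPM (0.94-fold) and *Calr* at 919 and 742 CPM (0.81-fold). The list of SREBP targets, whose activators are also S1P substrates, stood at 310 and 200 CPM (log2 -0.63, -0.999 to -0.27), with 10 of its 30 genes listed in both libraries, and it was lower in the Cko in elastase-high (448 and 232 CPM), monocyte-marker (364 and 140 CPM) and B-marker cells (273 and 209 CPM) too. The *Stfa* family stood at 16.5 and 192 CPM, and the Cko member with the most granule RNA held 37 UMIs of *BC100530* and 15 of *Stfa1* against 25 and 8 in the other 56 Cko members. Without that cell the family stood at 73.6 CPM in the Cko, from 45 UMIs. The family was higher in the Cko in elastase-high (38.0 and 80.5 CPM), monocyte-marker (48.7 and 160 CPM), B-marker (36.0 and 132 CPM) and hemoglobin-bearing cells (128 and 739 CPM) as well.

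**Figure D5:**
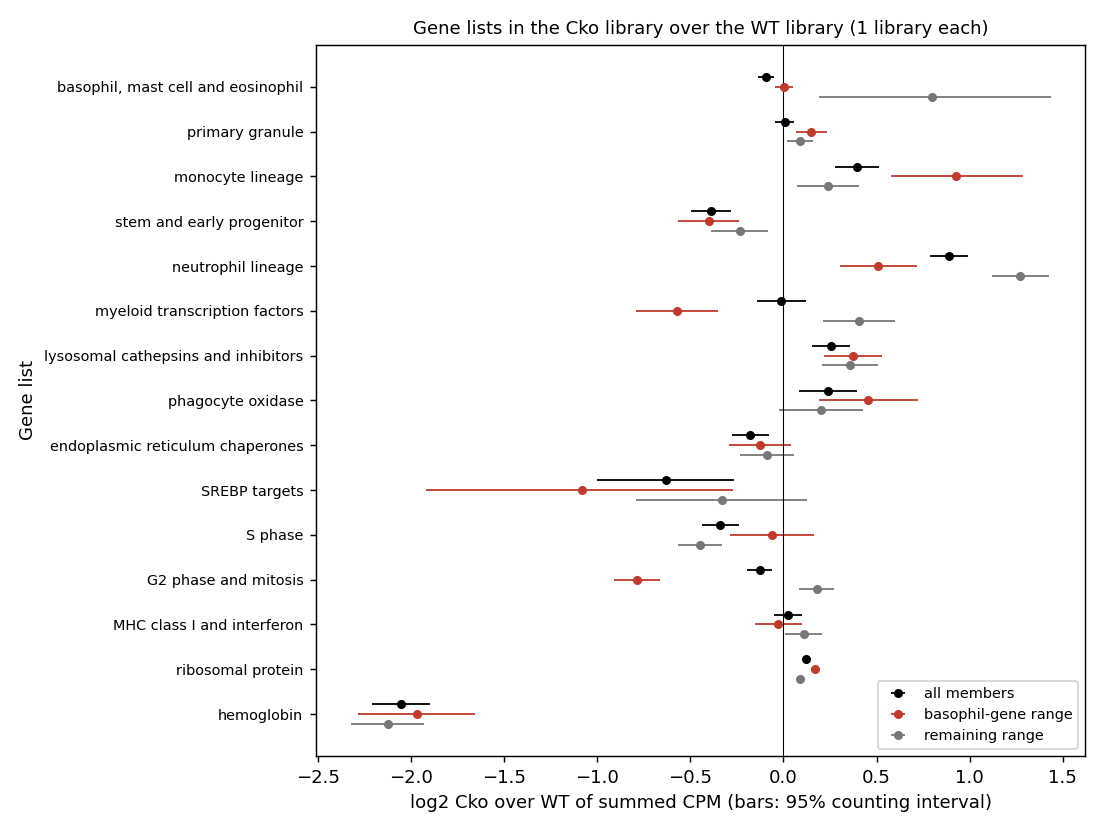
The horizontal axis gives the log2 Cko/WT of the summed CPM of each gene list (rows) for all members and for the basophil-gene and remaining ranges, with bars for the 95% counting interval. The primary granule list lies near 0, the hemoglobin list near -2.05, and the G2 phase and mitosis list lies at -0.79 in the basophil-gene members and at 0.18 in the remaining members.

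*Mbtps1*, the gene deleted in the Cko, was seen in the members at 26 UMIs in each library, 61.4 CPM (40.1 to 90.0) in the WT and 41.8 CPM (27.3 to 61.3) in the Cko. The 3′ counts do not come from the floxed exon 2, so they do not check its deletion. *Sp7*, which encodes osterix, had 0 UMIs in the WT members, which allows up to 3 UMIs, and was not listed in the Cko. *Xist* was listed in the Cko only, and was seen in all 57 Cko members at 1552 CPM, whereas the Y-linked genes *Ddx3y* (35.4 CPM) and *Eif2s3y* (28.4 CPM) were listed in the WT only. Genotype and sex therefore cannot be told apart in any difference between the 2 libraries. The members differed in which other lineages' genes they held. The T and NK cell list had 3 or more genes in 0 of 53 and 0 of 57 members, the stromal list in 0 and 0, the macrophage list in 1 and 4, and the B cell list in 3 and 4, at 243 CPM in both. Myeloid lists were seen in more members, with 3 or more genes of the basophil, mast cell and eosinophil list in 18 WT and 24 Cko members, of the dendritic list in 26 and 35, of the monocyte lineage list in 47 and 52, and of the neutrophil lineage list in 52 and 57. B-marker cells held the neutrophil list at 1968 and 2666 CPM and the dendritic list at 1133 and 1651 CPM. Members held them at 2585 and 4787 CPM and at 867 and 1169 CPM. The monocyte list (677 and 700 CPM) and the basophil, mast cell and eosinophil list (24.2 and 48.8 CPM) were lower in B-marker cells than in members. The erythroid and megakaryocyte list had 3 or more genes in 19 WT and 15 Cko members, and stood at 435 CPM in the WT and 249.5 CPM in the Cko. In B-marker cells it stood at 555 and 263 CPM. The counts of members with 3 or more genes were neither matched for depth nor made in other classes.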

How the data were processed

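The BMCs of 1 WT and 1 Cko mouse were counted per gene and cell barcode. The authors deposited whole-number UMI counts without normalization, made with Cell Ranger on GRCm38 per the submitters' processing notes; versions are not given in the sources used here. Genes absent from a table were not taken as 0, since the tables list only genes whose highest cell held 4 UMIs or more. The total row and sum column were left out, and barcodes with at least 200 genes kept (6271 WT, 3662 Cko; medians of 6977 and 7440 UMIs, 56382459 and 34447224 UMIs in all). Levels are UMIs summed over cells as CPM. Intervals are exact binomial (shares), Poisson (levels) and conditional (ratios). Ratios against a sum of 0 used a floor of 3 UMIs. Scrublet (scanpy 1.11.5) called 127 WT (2.03%) and 51 Cko (1.39%) doublets, which were kept. Sums were made in pandas 2.3.3 and numpy 2.4.6 under Python 3.11.15, intervals in scipy 1.17.1 and plots in matplotlib 3.10.9. The intervals of ratios were first tested on simulated counts. Promoters are from RefSeq; those of *Mpo*, *Elane* and *Mcpt8* overlap annotated exons and are not shown.

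The members and gene lists were chosen with earlier results of these data known. Named genes were those of the rule, *Ly6c2*, *Mbtps1*, *Sp7*, the leading genes of each list, and the 10 highest and 10 lowest of each comparison. Other genes, and the limits of the ranges, were chosen after their values were seen. The alternatives were other limits of the rule, removal of doublets or of members with markers of other lineages, other totals and scalings, thinning to 3000 UMIs, and gene limits of 300 and 30 UMIs.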

Additional observations from a re-analysis of the deposited data

How the results depend on the processing

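Each choice was changed alone. With hemoglobin limited to 0.2%, only 4 WT members remained beside 57 in the Cko, since hemoglobin took a median of 0.291% of a WT member's UMIs. Log2 Cko/WT of the share then became 4.61, genes higher and lower in the Cko 54 and 39, higher and lower than in elastase-high cells 4 and 35, higher and lower than in monocyte-marker cells 4 and 16, and the monocyte, stem and cell cycle lists -1.09, -0.52 and -0.52. Over barcodes with hemoglobin under 1%, the log2 share ratio was 0.082 in place of 0.88, because the WT held more hemoglobin-bearing cells. Under the 11 other alternatives it ran from 0.50 to 1.32, and its interval included 0 with *Mpo* and *Ctsg* at 0.2% or more (-0.09 to 1.38) and without members holding other lineages' markers (-0.23 to 1.53).

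With *Mpo* and *Ctsg* at 0.05% or more, 16 genes were lower in the Cko, and the monocyte and stem lists were at 0.090 and -0.24. At 0.2% or more, 15 genes were higher and 11 lower, and the monocyte, stem and cell cycle lists were at -0.59, -0.55 and -0.39. At 0.5% or more (13 and 19 cells), 8 were higher, 52 higher than in monocyte-marker cells, and the lists at -0.0090, -1.08 and -0.50. With *Elane* and *Prtn3* under 0.1%, the stem and cell cycle lists were at -0.55 and -0.30. Under 0.5%, 16 genes were lower in the Cko, 37 higher and 58 lower than in elastase-high cells, 180 higher than in monocyte-marker cells, and the monocyte list was at -0.040. The direction of the monocyte list thus turned under 4 limits, and the cause was not tested.

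Without members holding other lineages' markers (25 and 23 left), 13 genes were higher in the Cko, 22 higher than in elastase-high and 44 than in monocyte-marker cells, and the stem and cell cycle lists were at -0.086 and -0.0097. Without doublets, 11 genes were lower in the Cko. With equal weight per cell, 11 were lower, and the monocyte and stem lists were at 0.14 and -0.18. With ribosomal, mitochondrial and hemoglobin genes out of the total, 192 genes were higher than in monocyte-marker cells and the cell cycle lists were at -0.11; scaled by the median ratio they were at -0.094. After thinning, 5 genes were higher in the Cko, 10 higher and 62 lower than in elastase-high cells, 43 and 180 for monocyte-marker cells, and the monocyte, stem and cell cycle lists were at 0.038, -0.24 and -0.29.

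A limit of 300 UMIs gave 6 genes higher and 4 lower in the Cko, 14 and 71 against elastase-high cells and 36 and 117 against monocyte-marker cells. A limit of 30 gave 89 and 80, then 161 higher, then 310 and 531. Without basophil-gene and eosinophil-gene members, chosen after seeing the data (34 and 34 left), 18 genes were higher in the Cko, and the stem and cell cycle lists were at -0.27 and -0.023. Leaving out the Cko member with the most granule RNA, also chosen after seeing the data, left each of these 10 results close to its value (22 genes higher and 7 lower in the Cko). Ratios of 7 genes without the cell richest in each, chosen likewise, stand beside those genes. No paired analysis was possible because each genotype had 1 library.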
